A study of Mus musculus with 8 samples.

Results

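The hydrolysis of stored triglyceride inside the cell is covered by a short set of genes, picked by name for their known roles and without a threshold on a measured value. They are the lipase genes Pnpla2, Lipe, Mgll and Pnpla3, the coactivator gene Abhd5 and the inhibitor gene G0s2, that is 6 of the 31053 genes counted in brown adipose tissue (BAT), and 5 of the 6 had counts. In this tissue from 8-week-old mice, Mgll was 1.66-fold higher in db/db than in WT mice and Abhd5 was at 0.589 of its WT level, while Pnpla2, Lipe and G0s2 did not pass the test and Pnpla3 had 0 counts in all 8 libraries. Skeletal muscle markers were also higher in db/db, and with a muscle score as a covariate neither Mgll nor Abhd5 passed (edgeR adjusted p 0.262 and 0.0604). In that fit 606 genes differed in place of 2568. The log2 fold change was 0.51 in place of 0.73 for Mgll and −0.99 in place of −0.76 for Abhd5. The muscle marker sums did not overlap between the genotypes, so the score and the genotype are hard to separate.

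The study profiled BAT of db/db and WT males by bulk RNA-seq to describe how the tissue changes in obesity and type 2 diabetes. The WT animals were C57BL6/J males, which the methods text gives as from Charles River and the list of resources as from Jackson. The methods text gives the db/db animals as B6.BKS(D)-Lepr db/J males from Jackson, and the list of resources gives a Jackson stock number without a strain name. Mice of the db/db genotype carry a mutation of the leptin receptor gene Lepr in every cell, eat in excess and become obese. The labels give the strain of all samples as C57BL6/J, there was 1 sample per mouse with 4 mice per genotype, no treatment is named, the methods give a normal diet, and tissue was taken after a fast. The genotypes are not described as littermates, and if they came from different vendors or differed in background strain, these cannot be told apart from genotype. The p-values measure the spread between these animals. The labels name the tissue as BAT and the cell type as stromal vascular fraction, a preparation without mature adipocytes. Adipocyte transcripts were among those with many counts: the mean of Adipoq, an adipocyte hormone, was 1534 CPM (counts scaled to a common library size) in WT and 1909 CPM in db/db, and that of Ucp1, the uncoupling protein of brown fat, was 2248 and 1429 CPM. The samples are therefore called BAT.

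Lipolysis proceeds in steps. ATGL, the product of Pnpla2, cleaves triglyceride at the surface of the lipid droplet, hormone-sensitive lipase, the product of Lipe, cleaves the resulting diglyceride, and monoglyceride lipase, the product of Mgll, releases the last fatty acid and glycerol. ATGL is switched on by binding CGI-58, the product of Abhd5, which perilipins hold at the droplet in the resting state, and it is blocked by the product of G0s2. In brown fat, noradrenaline acts through beta-adrenergic receptors and cAMP to set this cascade going, and the fatty acids feed the mitochondria and activate Ucp1. The protein of Pnpla3 is a relative of ATGL on the droplet, and its gene is known for following feeding. Transcript levels do not report the phosphorylation and binding steps by which the enzymes are controlled.

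The 250 bases before the RefSeq transcription start (GRCm38.p6, the build called mm10) are shown for Mgll and Abhd5, the genes that differed in opposite directions, and for Pnpla2, the enzyme that acts first. They are written 5′ to 3′ on the strand of the gene, which is the plus strand in each case, and capitals mark every match to a searched motif.
Mgll, chr6:88724162-88724411: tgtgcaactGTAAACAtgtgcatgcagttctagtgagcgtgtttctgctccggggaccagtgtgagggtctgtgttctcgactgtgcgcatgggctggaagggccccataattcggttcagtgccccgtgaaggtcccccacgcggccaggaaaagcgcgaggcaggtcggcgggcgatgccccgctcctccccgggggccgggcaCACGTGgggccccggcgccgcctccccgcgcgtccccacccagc
Pnpla2, chr7:141454938-141455187: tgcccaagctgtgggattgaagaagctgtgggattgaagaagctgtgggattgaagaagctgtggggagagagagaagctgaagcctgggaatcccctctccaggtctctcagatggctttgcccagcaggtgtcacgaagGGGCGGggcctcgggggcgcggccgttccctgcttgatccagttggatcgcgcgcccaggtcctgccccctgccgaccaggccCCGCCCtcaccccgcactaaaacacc
Abhd5, chr9:122351366-122351615: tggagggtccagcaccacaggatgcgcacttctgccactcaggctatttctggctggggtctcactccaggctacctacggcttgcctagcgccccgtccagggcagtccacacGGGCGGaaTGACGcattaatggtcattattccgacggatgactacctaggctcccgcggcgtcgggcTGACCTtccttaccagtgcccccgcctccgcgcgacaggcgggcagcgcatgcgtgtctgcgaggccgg

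Motifs were searched on both strands. The window of Mgll held the forkhead motif GTAAACA from base −241 to −235 before the start, which 3.17% of 32851 mouse promoter windows of this length hold, and the E-box CACGTG from −44 to −39, which 6.02% hold. The window of Abhd5 held the nuclear receptor half-site AGGTCA on the minus strand from −69 to −64, found in 14.0% of windows, the cAMP half-site TGACG from −128 to −124, found in 17.8%, and the GC box GGGCGG from −136 to −131, found in 32.7%. Pnpla2 held only the GC box, from −109 to −104 and on the minus strand from −26 to −21. The Mgll and Lipe motifs were shared in part: Lipe held CACGTG before one of its 2 RefSeq starts and GTAAACA before the other, and the window before a second start of Mgll held neither, only a GC box. The window of Pnpla3 held the full cAMP response element TGACGTCA, which 1.55% of windows hold and which contains the half-site TGACG on each strand. The PPAR direct repeat, a pair of AGGTCA copies, and the paired GAAA motif of interferon regulatory factors were in none of the 8 windows of the 6 genes, against 0.0335% and 2.98% of all windows. GC content of the 8 windows ran from 58.4 to 74.8%, with a median of 52.4% over all windows. A match gives letters only, since no binding was measured in these samples.

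Libraries held 2374079 to 3240074 counts, the totals did not differ between genotypes beyond the replicate spread (exact two-sided permutation p = 0.114), and the lowest detectable level, taken as 3 counts, was 0.902 to 1.33 CPM. Of the 9264 genes that passed the count filter, 27.7% passed an adjusted p of 0.05 in edgeR, made up of 15.8% higher and 11.9% lower in db/db, each as a share of the genes tested. The median log2 fold change of all genes tested was 0.01. Markers of other cells moved with the genotype. All 10 skeletal muscle markers were higher in db/db, and their summed level spanned 398 to 1441 CPM over the WT libraries and 2161 to 10771 CPM over the db/db libraries, with db/db replicate 1 at the top. All 10 macrophage markers were higher, with sums of 160 to 210 CPM against 792 to 1385 CPM, as were all 6 fibroblast and progenitor markers, with sums of 494 to 622 CPM against 1007 to 2086 CPM. Of the 6 endothelial markers 3 were lower, and of the 8 brown adipocyte markers tested 6 were lower, with sums of 9056 to 10749 CPM against 3752 to 6875 CPM. No marker of these lists was at 0 in all libraries. In bulk tissue, fewer cells of a type and less RNA per cell cannot be told apart.

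Of the 5 lipolysis genes tested, 2 passed the test, 1 higher and 1 lower, beside 27.7% of all genes tested, and 5 genes are too few to set their share apart from that background. The median log2 fold change of the 5 was 0.04. The same 2 genes were those whose CPM values did not overlap between the genotypes, as was the case for 28.1% of all genes tested.

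**Figure D1:**
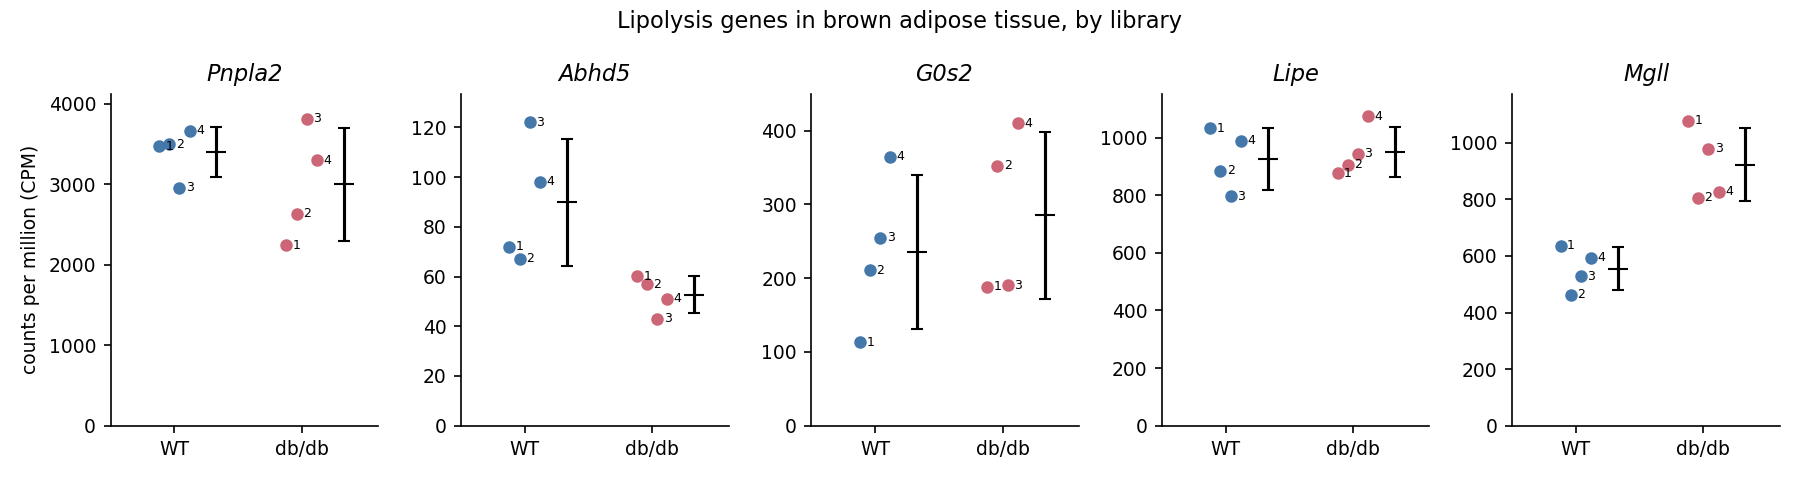
Level of each lipolysis gene in CPM (y axis, from 0, a scale of its own per gene) in the 4 WT and 4 db/db libraries, with points numbered by replicate and a bar for the mean and SD. Mgll sits above and Abhd5 below every WT library in all 4 db/db libraries, while Pnpla2, Lipe and G0s2 overlap.

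Pnpla2 (ENSMUSG00000025509, chr7:141455198-141460743, plus strand, protein coding), whose protein the study examined as the rate-limiting lipase, had 3476, 3501, 2956 and 3669 CPM in the WT libraries and 2246, 2633, 3818 and 3299 CPM in the db/db libraries. Replicates 1 and 2 of db/db lay below every WT library and replicate 3 lay above every WT library, so the genotypes overlapped. The means were 3401 ± 308 CPM in WT and 2999 ± 698 CPM in db/db (SD, n = 4 each), and the log2 fold change of −0.18 (SE 0.16) did not pass edgeR's test (adjusted p 0.447). Its 95% interval ran from −0.53 to 0.16, so that a fall of up to that lower bound or a small rise could not be told from no change. The coefficient of variation was 9.07% in WT and 23.3% in db/db, where counting alone gives 1.09 and 1.10%. No other annotated gene overlaps Pnpla2. The study reported lower ATGL in BAT of db/db mice by immunoblot, a measure of protein, while the values here are of RNA.

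Abhd5 (ENSMUSG00000032540, chr9:122351608-122381524, plus strand, protein coding), which encodes the coactivator that ATGL needs for full activity, had 72.0, 67.1, 122.1 and 98.1 CPM in WT and 60.2, 56.9, 43.0 and 51.0 CPM in db/db. Every db/db library lay below every WT library, and WT replicate 3 was the highest. The mean fell from 89.8 ± 25.5 to 52.8 ± 7.55 CPM (mean ± SD of 4 mice each; log2 change −0.76 ± 0.19 SE, 95% interval −1.15 to −0.37; adjusted p 0.00495 in edgeR). These values rest on 97 to 325 counts per library. Without WT replicate 3 the log2 fold change was −0.60 (edgeR adjusted p 0.0195). The antisense gene A730085K08Rik shares 950 exonic bases with Abhd5, and since the use of strand in counting is not given in the sources used here the count is uncertain, although that gene itself was listed at 0 counts.

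G0s2 (ENSMUSG00000009633, chr1:193272161-193273217, minus strand, protein coding), the inhibitor of ATGL, had 113.3, 210.6, 254.4 and 364.2 CPM in WT and 188.6, 352.5, 190.6 and 409.9 CPM in db/db. The ranges of the genotypes overlapped, and within WT the highest library was over the lowest by more than the genotype means differed. The means were 236 ± 104 and 285 ± 113 CPM (mean ± SD of 4 mice each; log2 change 0.28 ± 0.29 SE, 95% interval −0.33 to 0.88; adjusted p 0.515 in edgeR). It was the most variable of the lipolysis genes, with a coefficient of variation of 44.2% in WT and 39.6% in db/db against 4.16 and 3.50% from counting. The gene lies opposite Lamb3, with which it shares no exonic base.

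Lipe (ENSMUSG00000003123, chr7:25379527-25398710, minus strand, protein coding), the gene of hormone-sensitive lipase, had 1032, 885, 796 and 989 CPM in WT and 876, 905, 943 and 1074 CPM in db/db. The libraries of both genotypes were interleaved. The means were 925 ± 106 and 949 ± 87.1 CPM (mean ± SD of 4 mice each; log2 change 0.04 ± 0.13 SE; adjusted p 0.868 in edgeR), and the 95% interval of −0.24 to 0.32 was the narrowest of the 5 genes. The antisense gene 4732471J01Rik shares 918 exonic bases with Lipe and had at most 4 counts, so the count of Lipe is uncertain in that respect.

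Mgll (ENSMUSG00000033174, chr6:88724412-88828360, plus strand, protein coding), whose enzyme completes the breakdown of triglyceride and also degrades the endocannabinoid 2-arachidonoylglycerol, had 636.2, 462.6, 528.3 and 593.8 CPM in WT and 1077, 805.2, 978.3 and 826.6 CPM in db/db. The lowest db/db library lay above the highest WT library. The mean rose from 555 ± 76.0 to 922 ± 129 CPM (mean ± SD of 4 mice each; log2 change 0.73 ± 0.14 SE, 95% interval 0.43 to 1.03; adjusted p 0.000904 in edgeR). In the ranking of all tested genes by log2 fold change, Mgll stood at percentile 83.9 and Abhd5 at percentile 6.93. Mgll shares 167 exonic bases with the antisense gene Gm26588, which had at most 6 counts, and is uncertain for that reason.

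Both calls held in each of the 8 fits without one library. Replicate 1 of db/db had the highest Mgll level, the largest muscle, macrophage and fibroblast marker sums and the smallest brown adipocyte marker sum of all libraries. Without it Mgll had a log2 fold change of 0.64 (edgeR adjusted p 0.00155) and Abhd5 one of −0.84 (edgeR adjusted p 0.00412). Once a score of the muscle markers entered the model as a covariate, neither gene passed, Mgll having a log2 fold change of 0.51 (edgeR adjusted p 0.262) and Abhd5 one of −0.99 (edgeR adjusted p 0.0604). That fit called 606 genes in place of 2568, and the SE rose from 0.14 to 0.24 for Mgll and from 0.19 to 0.31 for Abhd5. Since the muscle marker sums did not overlap between the genotypes, this fit can hardly separate the score from the genotype. The part of macrophage, fibroblast and endothelial cells in the differences of Mgll and Abhd5 was not tested.

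Pnpla3 (ENSMUSG00000041653, chr15:84167837-84187236, plus strand, protein coding) had 0 counts in every library, so that its level was below 1.33 CPM in each by the limit of 3 counts. The RefSeq model of this gene ends 2285 bases beyond the GENCODE model, whereas for the other 5 genes the 3′ ends lie within 1 base of each other. Reads past the end of the annotation in use would not be counted for Pnpla3, and which annotation was used is not given in the sources used here. Lepr (chr4:101717404-101815352), the gene mutated in db/db, was also at 0 counts in all 8 libraries, so the genotype labels could not be checked on it.

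Levels were also divided by exon length, a scale that sets different genes side by side only if reads cover whole transcripts. On it the level of Pnpla2 in WT was 1126 ± 102 CPM per kb, followed by G0s2 at 271 ± 119, Lipe at 157 ± 18.0, Mgll at 109 ± 14.98 and Abhd5 at 15.1 ± 4.27 CPM per kb (SD, n = 4). Neighbours in this order did not overlap over the 4 WT libraries, with the exception of G0s2 and Lipe. In db/db the order was Pnpla2 at 993 ± 231, G0s2 at 328 ± 130, Mgll at 182 ± 25.4, Lipe at 161 ± 14.8 and Abhd5 at 8.86 ± 1.27 CPM per kb, and there the values of Mgll and Lipe overlapped. Mgll was thus below Lipe in WT and not separated from it in db/db. The methods name the library service as NEGEDIA Digital mRNA-seq and do not state whether reads covered whole transcripts or their 3′ ends. With reads from 3′ ends this scale would favour short genes such as G0s2, whose exons span 871 bases against 5956 for Abhd5. In CPM, without division by length, the WT mean of G0s2 was 236, below Lipe at 925 and Mgll at 555.

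To compare the genes with one another without any scaling of libraries, each was expressed relative to Pnpla2 in the same library. For every 100 counts of Pnpla2 there were 18.3, 13.2, 17.9 and 16.2 counts of Mgll in WT and 47.9, 30.6, 25.6 and 25.1 in db/db. The genotypes did not overlap, as was the case for 20.1% of all genes tested when set against Pnpla2. The mean log2 ratio of Mgll to Pnpla2, with 2 counts added, rose from −2.62 ± 0.21 to −1.68 ± 0.43 (SD, n = 4 each), a difference of 0.94 with an exact two-sided permutation p of 0.0286, the smallest that 4 against 4 samples allow. This p is 1 of 4 computed against Pnpla2 and is not adjusted.

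The other ratios overlapped between the genotypes. Lipe stood at 29.7, 25.3, 26.9 and 26.9 counts per 100 of Pnpla2 in WT and at 39.0, 34.4, 24.7 and 32.5 in db/db, with 3 of the 4 db/db libraries above every WT library (difference in log2 ratio 0.25, exact permutation p = 0.143, n = 4 each). The fourth, db/db replicate 3, lay below every WT library, and leaving it out gave a difference of 0.37, from which no test is read since that choice itself separates the rest. The coactivator Abhd5 stood at 2.07, 1.92, 4.13 and 2.67 counts per 100 of Pnpla2 in WT and at 2.68, 2.16, 1.13 and 1.54 in db/db (difference −0.52, exact permutation p = 0.286, n = 4 each). The fall of Abhd5 was thus not separable from the spread once set against the lipase that it activates. The inhibitor G0s2 stood at 3.26 to 9.93 counts per 100 of Pnpla2 in WT and at 4.99 to 13.4 in db/db (difference 0.51, exact permutation p = 0.314, n = 4 each).

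**Figure D2:**
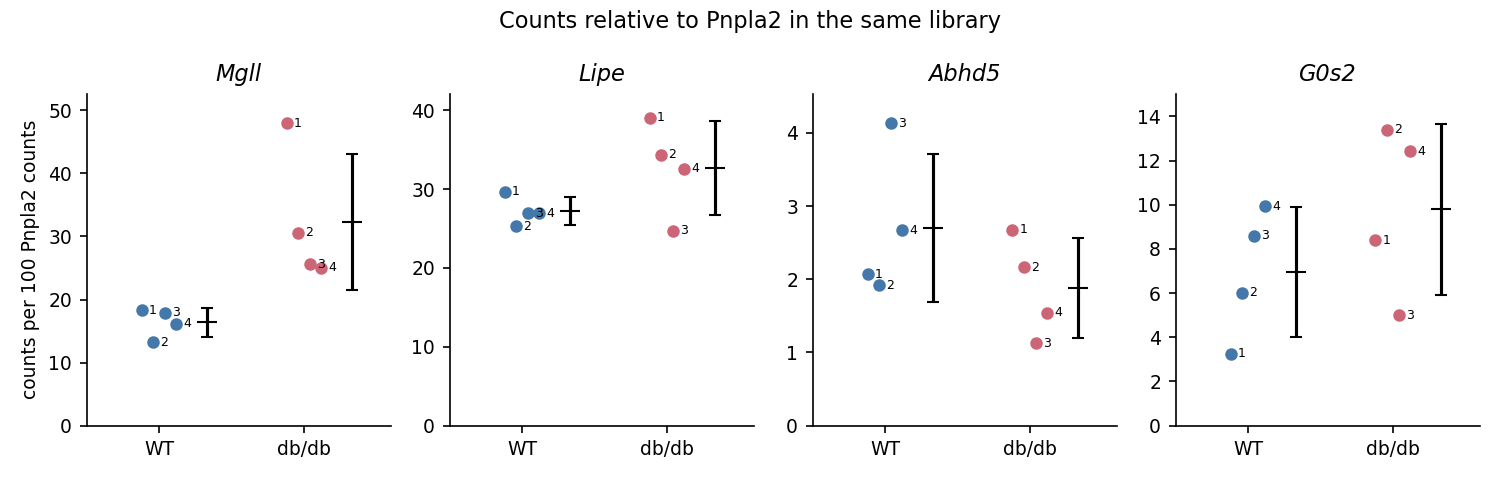
Counts of Mgll, Lipe, Abhd5 and G0s2 per 100 counts of Pnpla2 in the same library (y axis, from 0) in WT and db/db, with points numbered by replicate and a bar for the mean and SD. Only for Mgll do the 4 db/db libraries, at 25.1 to 47.9, all lie above the 4 WT libraries, at 13.2 to 18.3.

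Because the tissue is a mixture of cells, the genes were also set against the mean log2 CPM of 5 adipocyte markers, Adipoq, Plin1, Pparg, Cebpa and Fabp4. Abhd5 had a log2 ratio of −3.37 to −2.86 in WT and of −4.35 to −3.60 in db/db, without overlap, where 26.1% of all genes tested did not overlap on this measure. The difference was −0.95 (exact permutation p = 0.0286, the smallest possible, n = 4 each, 1 of 5 such tests and not adjusted). Leaving out 1 library cannot bring separated genotypes to overlap, and the differences then ran from −1.11 to −0.85. The exact permutation p was 0.0571 in each of the 4 tests without a WT library, a p that 3 against 4 samples can give at full separation and that says nothing of stability. Mgll was higher by 0.50 in the mean but overlapped (exact permutation p = 0.114, n = 4 each), and Pnpla2 had a difference of −0.43 (exact permutation p = 0.0857, n = 4 each). The differences of Lipe and G0s2 were −0.19 and 0.08, with exact permutation p of 0.343 and 0.8286 (n = 4 each).

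The markers were not constant themselves. Plin1 and Fabp4 rose by 0.79 and 0.65 on the log2 scale (edgeR adjusted p 0.000685 and 0.0309), whereas Adipoq, Pparg and Cebpa had log2 fold changes of 0.32, −0.39 and −0.19 and did not pass. Against Pparg alone or Cebpa alone the difference of Abhd5 was −0.24 or −0.52 and did not pass (exact permutation p = 0.686 and 0.143, n = 4 each), and against Adipoq, Plin1 or Fabp4 alone it lay between −1.54 and −1.05 with no overlap.

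**Figure D3:**
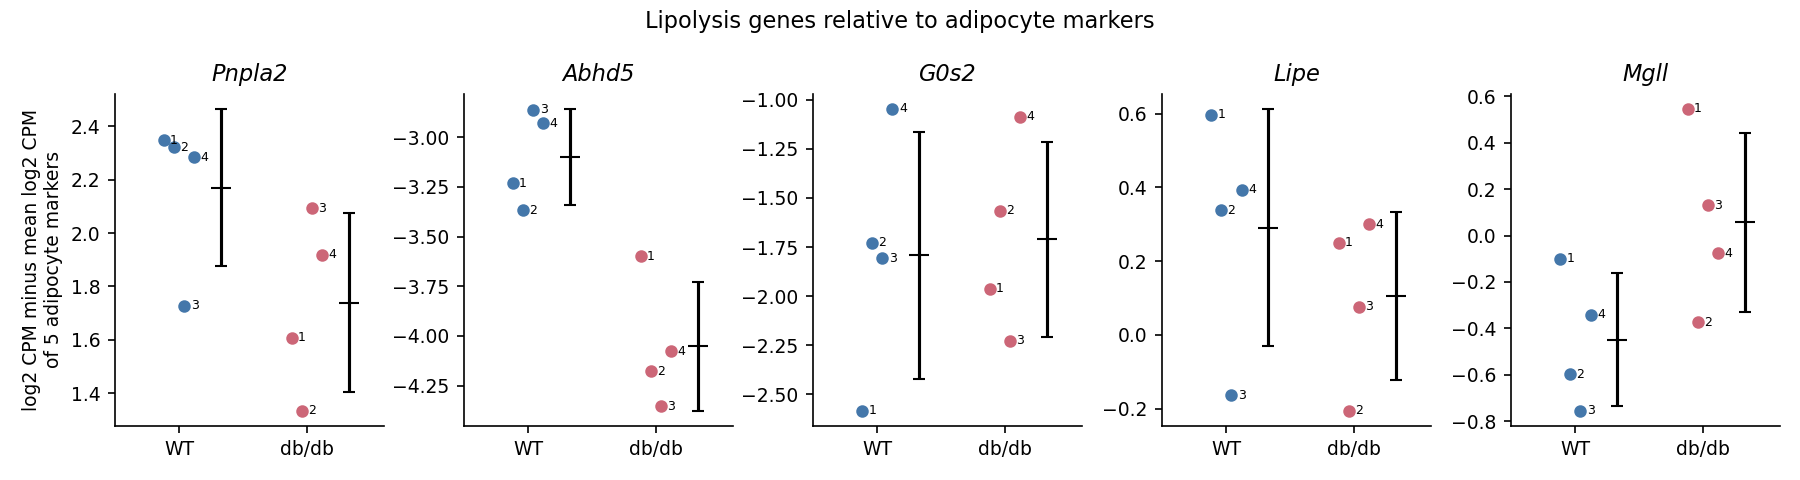
Log2 CPM of each lipolysis gene minus the mean log2 CPM of the 5 adipocyte markers (y axis, a log scale that does not start at 0) in WT and db/db, with points numbered by replicate and a bar for the mean and SD. Abhd5 is the one gene whose 4 db/db libraries all lie below the 4 WT libraries, and Mgll overlaps on this measure.

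Proteins on the droplet decide whether the lipases reach their substrate. Of 10 genes of such droplet partners all were tested, 3 were higher and 2 lower in db/db, with a median log2 fold change of −0.18, beside 15.8% higher and 11.9% lower over all genes tested. Plin1, the perilipin that binds the Abhd5 product in the resting adipocyte, rose from 521 ± 109 to 898 ± 48.5 CPM (SD, n = 4 each; SE 0.15 of its log2 fold change of 0.79), and the lowest db/db library at 838 CPM lay above the highest WT library at 649 CPM. Plin5, the perilipin of oxidative tissues that binds both ATGL and the Abhd5 product, fell from 236 ± 52.3 to 133 ± 15.1 CPM (mean ± SD of 4 mice each; log2 change −0.83 ± 0.16 SE; adjusted p 0.000593 in edgeR), also without overlap. The changes of Abhd5 and Plin5 thus had the same sign and that of Plin1 the opposite one, each on the same log2 scale.

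Cidea, a droplet fusion protein of brown fat, fell by 1.24 in log2 units (0.17 SE, adjusted p 4.19e-05 in edgeR) and Plin4, a perilipin of white fat, rose by 1.07 (0.18 SE, adjusted p 0.000195 in edgeR). The fatty acid carrier gene Fabp4, whose product binds hormone-sensitive lipase, rose by 0.65, with 2 of the 4 db/db libraries above every WT library. Cidec, the CIDE protein of large droplets, Hilpda, another inhibitor of ATGL, and Faf2, whose product has been tied to ATGL at the droplet, had log2 fold changes of −0.17, −0.33 and 0.0 (edgeR adjusted p 0.522, 0.201 and 0.996) and did not pass. Thus neither inhibitor of ATGL, G0s2 or Hilpda, passed the test. Plin4 shares 17 exonic bases with Hdgfl2 and Cidea lies opposite another transcript without a shared exonic base.

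Of 19 genes of other ester hydrolases, 14 were tested, 3 were higher and 6 lower in db/db (15.8% and 11.9% over all genes tested), with a median log2 fold change of −0.39. Pnpla1 and Pnpla5, further relatives of Pnpla2, were at 0 counts in all libraries, as was Pnpla3. Abhd6, which like Mgll hydrolyses monoglycerides including 2-arachidonoylglycerol, fell from 53.6 ± 2.56 to 21.03 ± 3.85 CPM (mean ± SD of 4 mice each; log2 change −1.35 ± 0.17 SE; adjusted p 1.92e-05 in edgeR), without overlap. Abhd6 and Mgll, both monoglyceride hydrolases, thus moved in opposite directions. Abhd12, another hydrolase with that activity, chosen after its values were seen, rose by 0.73 on the log2 scale (edgeR adjusted p 0.0174). The carboxylesterase gene Ces1f fell from 24.5 ± 5.21 to 4.07 ± 2.53 CPM (mean ± SD of 4 mice each; log2 change −2.59 ± 0.35 SE; adjusted p 2.89e-05 in edgeR). Nceh1, a cholesteryl ester hydrolase known from macrophages, rose from 2.15 ± 1.69 to 9.11 ± 2.82 CPM (mean ± SD of 4 mice each; log2 change 2.08 ± 0.46 SE; adjusted p 0.00235 in edgeR), on 2 to 39 counts per library. The lowest WT library of Nceh1 lay under the limit of 3 counts, so the size of this rise is uncertain, and the gene reached the mean level asked for through db/db. Lipa, the acid lipase of the lysosome, also chosen after its values were seen, rose by 0.86 (edgeR adjusted p 0.000587), in libraries whose macrophage marker sums are given above, and the part of macrophages in it was not tested.

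Hormonal control was covered by 27 genes of adrenergic, natriuretic peptide, insulin and inhibitory receptor input (the last for adenosine, lactate, ketone bodies and prostaglandin E), of which 26 were tested, 2 were higher and 8 lower in db/db (15.8% and 11.9% over all genes tested), with a median log2 fold change of −0.25. Npr3, the clearance receptor that removes natriuretic peptides, which stimulate lipolysis, rose from 21.7 ± 6.46 to 254 ± 20.5 CPM (mean ± SD of 4 mice each; log2 change 3.55 ± 0.19 SE; adjusted p 8.58e-10 in edgeR). Pde4d, a cAMP phosphodiesterase, fell from 29.4 ± 6.24 to 7.94 ± 2.23 CPM (mean ± SD of 4 mice each; log2 change −1.87 ± 0.25 SE; adjusted p 2.90e-05 in edgeR), and Irs2, an adaptor of the insulin receptor, fell from 177 ± 64.4 to 54.4 ± 18.1 CPM (mean ± SD of 4 mice each; log2 change −1.70 ± 0.26 SE; adjusted p 9.91e-05 in edgeR). Both Adrb3, the beta-adrenergic receptor of adipocytes that starts lipolysis, and Pde3b, the phosphodiesterase through which insulin restrains it, fell, by 1.22 and 0.95 on the log2 scale (edgeR adjusted p 0.00298 and 7.54e-05), and these were chosen after their values were seen. Genes on the stimulating and on the restraining side of the cascade were thus both among those that fell. The other gene that was higher, Gnai2 of the inhibitory G protein, also chosen after its values were seen, rose by 0.76 (edgeR adjusted p 0.00137). Npr3, Irs2 and Adrb3 share 321, 162 and 839 exonic bases with other genes and are uncertain.

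Of 12 regulators of transcription of the lipase genes, 11 were tested, 0 were higher and 2 lower in db/db, with a median log2 fold change of −0.19, so that 2 of 11 were called where 27.7% of all genes tested were. Irf4, a factor induced by fasting that drives Pnpla2 and Lipe in adipocytes, fell from 38.0 ± 20.2 to 4.09 ± 0.721 CPM (mean ± SD of 4 mice each; log2 change −3.22 ± 0.39 SE; adjusted p 9.47e-06 in edgeR). Its WT libraries held 13.8 to 55.3 CPM and its db/db libraries 3.01 to 4.46 CPM. Neither Pnpla2 nor Lipe passed the test in the same libraries. Ppara, the nuclear receptor of fatty acid oxidation, fell by 1.46 (0.31 SE, adjusted p 0.00165 in edgeR). Foxo1, an insulin-restrained factor that drives Pnpla2, had a log2 fold change of 0.10 (0.15 SE, adjusted p 0.672 in edgeR) and shares 674 exonic bases with Gm20402. Pparg, the adipocyte factor that also drives Pnpla2, did not pass, as given among the markers.

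**Figure D4:**
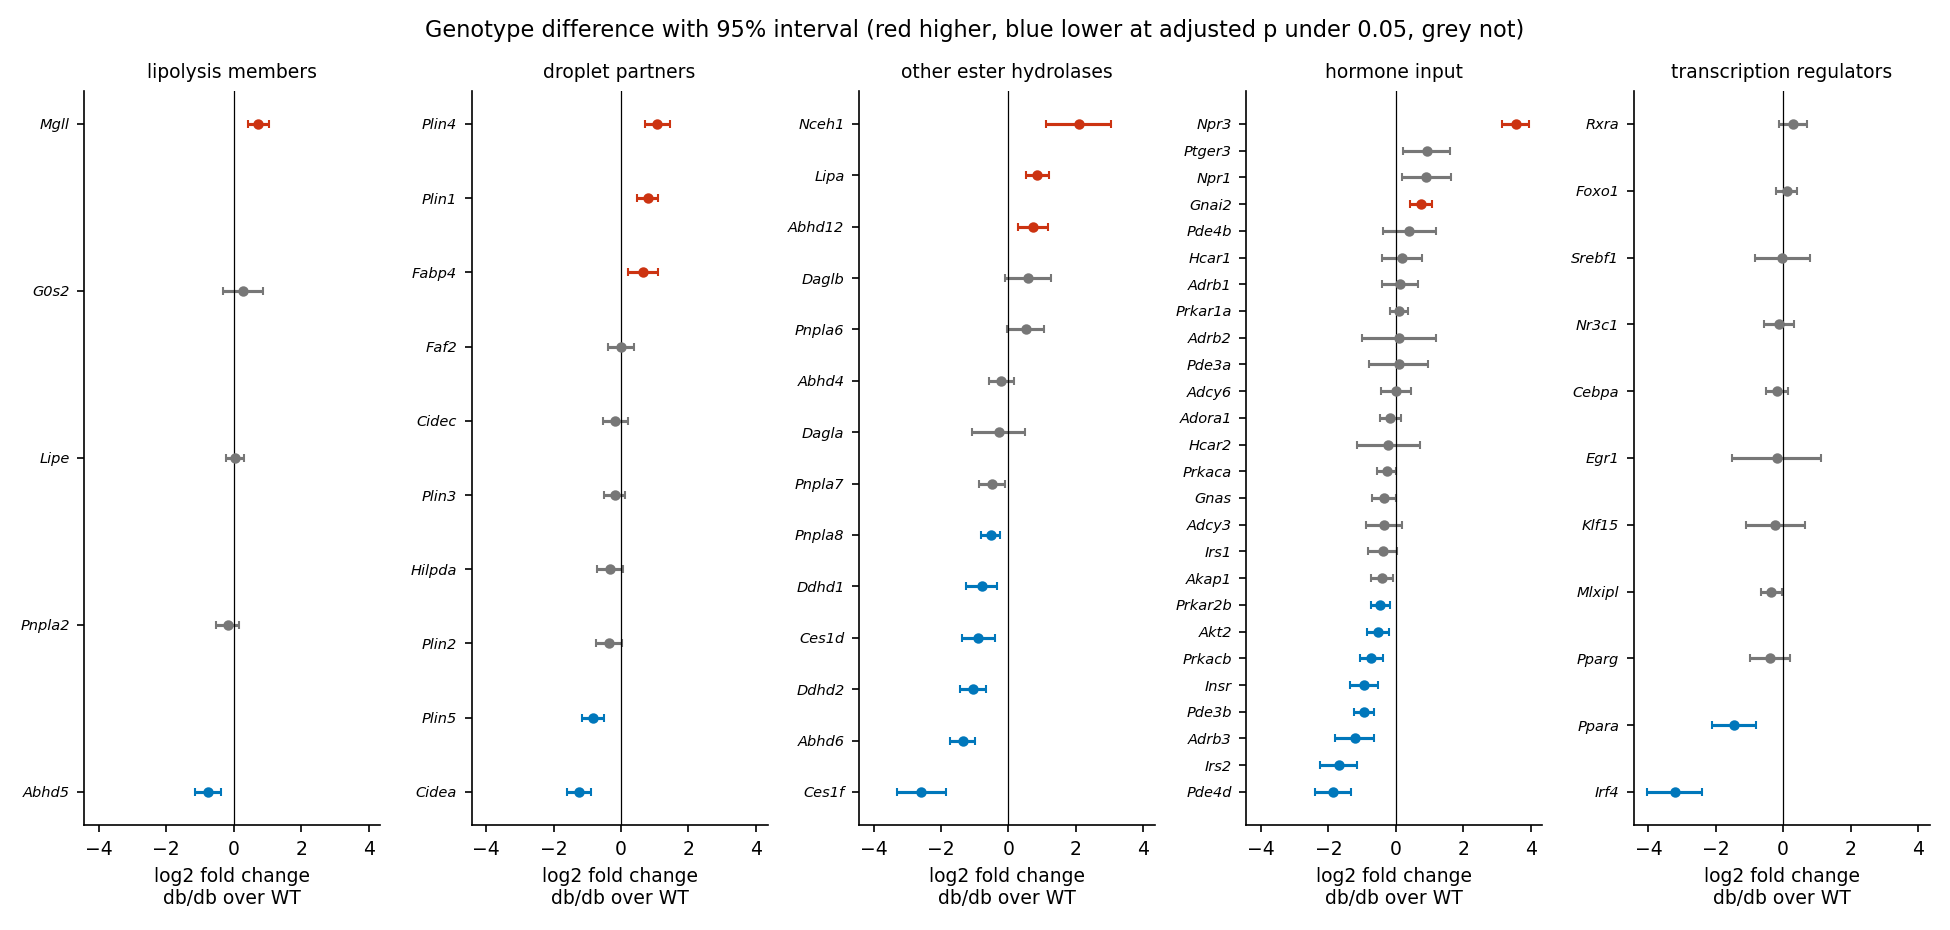
Log2 fold change of db/db over WT (x axis) with its 95% interval for each tested gene of the lipolysis genes and of the lists of droplet partners, other ester hydrolases, hormone input and transcription regulators, in red where higher and blue where lower at an adjusted p under 0.05 and in grey otherwise. Of the lipolysis genes Mgll lies to the right and Abhd5 to the left of 0, and Npr3 at 3.55 and Irf4 at −3.22 lie farthest out.

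Among 2149 tested genes with a mean of at least 50 CPM, those whose log2 CPM followed each lipolysis gene most closely over the 8 libraries were named as a description. For Mgll they were Grn and Cavin1 (Pearson r = 0.97 each), which rose by 0.82 and 1.42 on the log2 scale, and within genotypes, after the genotype means were removed, r was 0.84 and 0.93. Abhd5 was followed by Rtraf (r = 0.95, and 0.98 within genotypes), with a log2 fold change of −0.25 that did not pass. Pnpla2 was followed by Ssbp3 and Samm50 (r = 0.94 each), Lipe by Clybl and Mrpl45 (r = 0.93 and 0.91), and G0s2 by Psmd14 and Eif5a (r = 0.94 and 0.93), none of which passed the test between the genotypes. No gene was named for more than 1 lipolysis gene. These values share the same 8 libraries and their scaling, and are among the highest of 2149 for each gene.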

How the data were processed

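Bulk RNA-seq was performed on BAT of 4 WT and 4 db/db mice, with groups taken from the sample titles. Per the methods and labels, the authors trimmed reads with bbduk, aligned them to mm10 with STAR and deposited raw counts per Ensembl gene from HTSeq-count, whereas the submitters' processing notes name Trimmomatic, HISAT2 and DESeq2. The annotation, the use of strand and the collapsing of molecular identifiers are not given in the sources used here, so counts may hold PCR copies, and floors cover counting error only. The deposited log2 normalized values and the sample sheet were not used.

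Genes were named and located by GENCODE M21 (30934 of 31053 matched). The 9264 genes with a minimum count of 10 by filterByExpr (minimum total 15) were scaled by TMM and tested for genotype with the quasi-likelihood test of edgeR 4.0.16 in R 4.3.3, adjusted by Benjamini-Hochberg at 0.05 over all of them. CPM used the total over these genes times the TMM factor. Ratios within a library used a pseudocount of 2 counts and exact two-sided permutation tests over the 70 arrangements of the samples. The procedures were tested on simulated data. Promoters came from RefSeq tables, in which 6 of the 6 genes matched.

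DESeq2 1.42.0, limma-voom (limma 3.58.1), other scalings and filters, the replicate number as a block, a muscle score covariate and leaving out each sample were alternatives. Same-numbered samples are different animals, and correlations of their deviations lay between −0.08 and 0.05, so the numbers were not taken as pairs. Libraries of one genotype differed by more than counting allows (chi-square per degree of freedom at least 3.99), and each counted as 1 replicate.

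The genes and lists were chosen with earlier results of these data known. Named besides the 6 genes were their direct partners (Plin1, Plin5, Cidec, Hilpda, Fabp4, Faf2), Irf4 and Foxo1, per list the 3 largest changes among called genes with a mean of at least 5 CPM, and per tested gene the 2 with the highest correlation, of which 1 is not reported here. Figures were drawn with matplotlib.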

Additional observations from a re-analysis of the deposited data

How the results depend on the processing

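Mgll stayed higher and Abhd5 lower, with both past the threshold, under 8 of 9 other fits of the counts, in which the log2 fold change over all 9 ran from 0.51 to 0.78 for Mgll and from −0.99 to −0.71 for Abhd5. The exception was the skeletal muscle score as a covariate, with 0 lipolysis genes called, 0 higher and 0 lower (Mgll 0.51, Abhd5 −0.99). That fit left 606 genes differing, 445 higher and 161 lower, so that 73.4% of the calls were increases in place of 57.1%. In it the SE rose from 0.14 to 0.24 for Mgll and from 0.19 to 0.31 for Abhd5, whose difference was larger than without the covariate, and Pnpla2 was at −0.011, Lipe at 0.18 and G0s2 at 0.37. The muscle markers are themselves higher in db/db, and the cause was not tested. Over the 8 fits without one library, 2236 to 2483 genes differed, 1281 to 1435 higher and 889 to 1056 lower, and 2 lipolysis genes were called in each, with Mgll at 0.64 to 0.79, Abhd5 at −0.89 to −0.60, Pnpla2 at −0.32 to −0.07 and G0s2 at 0.03 to 0.56. Lipe, at 0.04 in the reported fit, turned to −0.0094 without a filter, −0.049 without WT replicate 3 and −0.030 without db/db replicate 4, and reached 0.073 without WT replicate 1. With the replicate number as a block (replicate block), 2557 genes differed and 2 lipolysis genes were called, and no call on the lipolysis genes changed.

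The ratios to Pnpla2 kept their sign and side of the threshold with 0.5 added in place of 2. Without one library, Mgll to Pnpla2 ran from 0.73 to 1.04, with an exact permutation p of 0.0286 each time, the smallest that 3 against 4 samples allow. The genotypes stay separated on this ratio whichever library is left out, so that p says nothing of stability. Abhd5 to Pnpla2 ran from −0.72 to −0.30 and G0s2 to Pnpla2 from 0.19 to 0.80 without passing. Lipe to Pnpla2 ran from 0.15 to 0.37. The highest of these Lipe values was that without db/db replicate 3, which lay below every WT library, and no test is read from it. Relative to the 5 markers, Abhd5 ran from −1.11 to −0.85, and leaving a library out could not bring the separated genotypes to overlap. Its exact permutation p was 0.0286 without a db/db library and 0.0571 without a WT library. Full separation can give both with 3 against 4 samples. G0s2 ran from −0.18 to 0.33, turning to −0.18 without WT replicate 1 and −0.13 without db/db replicate 4. Pnpla2 (−0.58 to −0.30), Lipe (−0.34 to −0.082) and Mgll (0.34 to 0.65) did not pass. The ratios to adipocyte markers depended on the marker. Against Adipoq alone Mgll was at 0.41 (exact permutation p = 0.0286) and G0s2 at −0.017. Against Plin1 alone Pnpla2 was at −1.02 and Lipe at −0.77 (exact permutation p = 0.0286 each), Mgll at −0.079 and G0s2 at −0.50. Against Pparg alone Pnpla2 was at 0.28, Lipe at 0.53, Mgll at 1.22, G0s2 at 0.79 and Abhd5 at −0.24. Against Cebpa alone Pnpla2 was at −0.0020, Lipe at 0.24, Mgll at 0.93 (exact permutation p = 0.0286) and Abhd5 at −0.52. Against Fabp4 alone Pnpla2 was at −0.90, Lipe at −0.65, Mgll at 0.042 and G0s2 at −0.38. The cause was not tested. Counts were lowest for Abhd5, at 97 to 325 per library, among the genes with counts, and Pnpla3 was at 0.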

Other observations

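Over the levels of the 5 lipolysis genes with counts and the 4 ratios to Pnpla2, in each genotype, 18 groups of 4 values were searched for an outlying library with Dixon's 95% limit, and 0 went past it, where chance gives about 0.9.

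Among genes of the same lists that lie outside the rule for naming and were chosen after their values were seen, Ddhd2, a hydrolase with activity on phospholipids and triglycerides, fell by 1.04 on the log2 scale (edgeR adjusted p 0.000388), with 119 to 180 CPM in WT and 51.5 to 94.4 CPM in db/db. Pnpla8, a mitochondrial relative of Pnpla2, fell by 0.53 (edgeR adjusted p 0.0083), with 83.4 to 90.7 CPM in WT and 49.6 to 66.0 CPM in db/db. Ddhd2 and Pnpla8 share 117 and 91 exonic bases with other transcripts and are uncertain. Plin2, the perilipin found on droplets of most cells, had a log2 fold change of −0.35 (95% interval −0.74 to 0.04, edgeR adjusted p 0.172) and did not pass.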
